A study of Canis lupus familiaris with 8 samples.

Results

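Expression of 4 killer cell lectin-like receptor genes, KLRK1, KLRG1, KLRB1 and KLRD1, was examined in canine TCRαβ+ T cells. The members were taken by gene symbol, as 4 of 20257 gene rows, with the identifiers ENSCAFG00000025596, ENSCAFG00000028762, ENSCAFG00000013612 and ENSCAFG00000013459. The cells came from the blood of 4 healthy Beagles: dog 1, a female of 5 years, dogs 2 and 3, males of 7 years, and dog 4, a male of 9 years. All dogs had received routine vaccinations. TCRαβ+ cells were isolated by flow cytometric sorting, cryopreserved, thawed together and run as 1 gene expression and 1 V(D)J library per dog with a droplet-based 5′ chemistry. There were no treatment groups, the dog was the replicate (n = 4), and age and sex cannot be told apart between these dogs. Gene names of dog 1 were taken from the list shared by the other dogs, because its own list does not match its matrix in length. On a log scale, summed counts per row in dogs 1 and 2 had a correlation of 0.991.

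Killer cell lectin-like receptors are type II membrane proteins first described on natural killer (NK) cells and also carried by T cells that have met antigen. KLRK1, also called NKG2D, is an activating receptor for stress-induced relatives of MHC class I and signals through the adaptor HCST (DAP10). KLRD1, or CD94, pairs with NKG2 chains to form inhibitory or activating receptors for non-classical MHC class I. KLRB1, or CD161, binds the lectin CLEC2D in humans and marks human mucosal-associated invariant T (MAIT) cells, and KLRG1 is an inhibitory receptor for cadherins that marks differentiated T cells. In the canine RefSeq annotation (UU_Cfam_GSD_1.0, another build than the files' CanFam 3.1), the genes lie on chromosome 27 in the order KLRG1, KLRB1, CLEC2D, KLRF1, KLRD1, KLRK1 and KLRA1.

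Of 33125 barcodes in the 4 libraries, 31909 had 500 to 20000 unique molecular identifiers (UMIs, 1 per captured transcript) and at most 10% mitochondrial UMIs and were analysed. Medians were 3599 to 3931 UMIs per cell in the 4 dogs, and pairs of libraries shared 87 to 120 barcodes. Cells were gated on UMIs of CD4 and CD8A into 6427 CD8A+ single-positive (sp), 13247 CD4+ sp, 725 double-positive (dp) and 11510 double-negative (dn) cells. The gates rest on single genes, so a cell without a UMI is not shown to lack the transcript. The CD3 genes and CD2 and CD5 summed to 2780 to 3070 counts per 1000000 UMIs (CPM) per library. Among markers of other cells, MS4A1, CD79B, PAX5, LYZ, CD68 and CSF1R were at or below 2.55 CPM, while the rows named CD79A (9060 to 10300 CPM) and S100A8 (1390 to 2770 CPM) were high in every library. Whether these rows measure the named genes was not tested.

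All members were found in all dogs. KLRD1 had 18412 UMIs in 5626 cells, KLRK1 14903 UMIs in 6894 cells, KLRB1 9100 UMIs in 3231 cells and KLRG1 7971 UMIs in 5044 cells. KLRB1 and KLRD1 were concentrated in CD8A+ sp cells, which held 87.7% and 82.5% of their UMIs, against 58.0% for KLRK1 and 47.0% for KLRG1. The dn cells held 21.5% of the KLRK1 and 24.4% of the KLRG1 UMIs. Of the neighbouring lectin-like genes, KLRA1 had 248 UMIs, KLRF1 had 9 and KLRF2 had 0. No row was matched to the NKG2 chains KLRC1 to KLRC4 by symbol. The paper reports NKG2C, which belongs to these chains, as raised only in its MAIT-like and innate-like effector CD8A clusters. The lack of a symbol thus does not show that the chains are absent from the data.

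The first comparison asked whether the receptors differ between the CD8A and CD4 lineages. All 4 were higher in CD8A+ sp than in CD4+ sp cells, from 4.01-fold for KLRG1 to 55.8-fold for KLRB1. Levels are CPM of UMIs summed per dog and class. KLRB1 was at 91.2, 182, 412 and 370 CPM in the CD8A+ sp cells of dogs 1 to 4 (264 ± 152, SD) and at 0.632, 2.90, 11.6 and 4.64 CPM in their CD4+ sp cells (4.93 ± 4.72). Every CD8A+ sp value exceeded every CD4+ sp value, and dog 1 was lowest in both classes. The log2 fold change was 5.80 (SE 0.71, edgeR quasi-likelihood test, adjusted p = 0.000694).

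KLRD1 was at 431, 474, 676 and 637 CPM in CD8A+ sp cells (554 ± 120) and at 0.773, 10.6, 29.1 and 17.1 CPM in CD4+ sp cells (14.4 ± 11.9). The classes did not overlap, and dog 1 was again lowest in both. The log2 fold change was 5.29 (SE 0.69, edgeR adjusted p = 0.000966), or 39.0-fold. For KLRK1, CD8A+ sp cells had 286, 332, 387 and 298 CPM (326 ± 45.0) and CD4+ sp cells 2.88, 47.0, 71.6 and 47.8 CPM (42.3 ± 28.7). Its CD8A+ sp levels were close together, whereas the CD4+ sp level of dog 1 stood far below the others. The log2 fold change was 2.95 (SE 0.63, edgeR adjusted p = 0.0124). The CD8A+ sp to CD4+ sp ratio of KLRK1 was 99.5 in dog 1 and 5.4 to 7.06 in dogs 2 to 4. KLRG1 was at 135, 89.5, 160 and 175 CPM (140 ± 37.4) against 13.4, 22.5, 35.2 and 69.3 CPM (35.1 ± 24.5). Here dog 2 was lowest among CD8A+ sp cells, and dog 4 was highest in both classes, without overlap. The log2 fold change was 2.0 (SE 0.43, edgeR adjusted p = 0.0127).

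Of 10120 genes tested in this comparison, 14.1% were called at an adjusted p under 0.05, and 7.52% were called higher in CD8A+ sp cells, against 4 of 4 members. With the dog as a replicate block 2744 genes were called, again with 4 of 4 members. Their edgeR adjusted p was then 0.00193 for KLRK1, 0.000527 for KLRG1, 9.31e-07 for KLRB1 and 5.83e-05 for KLRD1. Without the block the KLRK1 call was lost without dog 2 (edgeR adjusted p = 0.0855) and without dog 4 (0.051). The KLRG1 call was lost without dog 2 (0.0523) and without dog 3 (0.0883). Direction and fold remained similar, at log2 2.61 to 3.23 for KLRK1 and 1.75 to 2.43 for KLRG1.

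**Figure D1:**
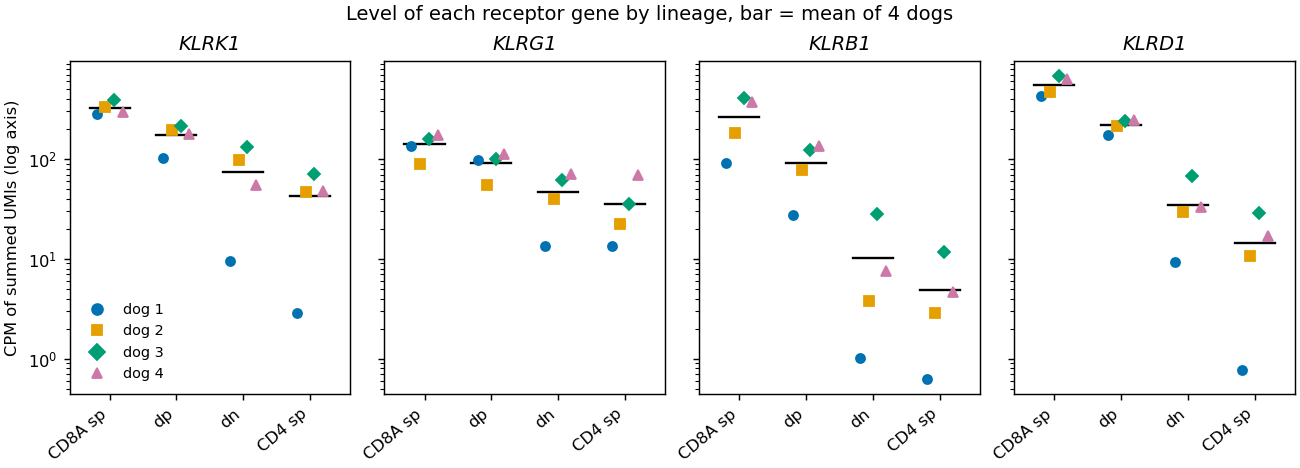
CPM (log axis) of the 4 receptor genes in CD8A sp, dp, dn and CD4 sp cells, with 1 point per dog and a bar for the mean of the 4 dogs. CD8A sp cells sit highest and CD4 sp cells lowest by mean for each gene, and dog 1 is far below the others for KLRK1 in dn (9.44 CPM) and CD4 sp cells (2.88 CPM).

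By mean level the lineages had the order CD8A+ sp, dp, dn and CD4+ sp for all members, and this order held in each of the 4 dogs. How many other genes follow it was not counted. KLRK1 averaged 173 ± 48.4 CPM in dp and 73.6 ± 52.9 CPM in dn cells. KLRD1 averaged 219 ± 32.6 and 34.9 ± 24.4 CPM, KLRB1 90.7 ± 48.8 and 10.2 ± 12.3 CPM, and KLRG1 91.0 ± 24.9 and 46.5 ± 25.6 CPM. Between neighbours in this order the ranges over dogs were separate for CD8A+ sp and dp cells with KLRK1 and KLRD1, and for dp and dn cells with KLRD1. All other neighbours overlapped. Among dp cells with a TRB chain, 21.6 ± 4.13% held more than 1 productive TRB, against 4.18 ± 2.06% of CD8A+ sp and 3.80 ± 0.845% of CD4+ sp cells. The 390 dp cells with exactly 1 TRB had 168 ± 56.0 CPM of KLRK1, 97.7 ± 31.8 of KLRG1, 59.3 ± 38.2 of KLRB1 and 163 ± 16.6 of KLRD1.

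As a share of cells with at least 1 UMI, KLRD1 was found in 46.6, 56.6, 71.5 and 69.3% of CD8A+ sp cells in dogs 1 to 4 (61.0 ± 11.6%) and KLRK1 in 52.4, 57.9, 63.6 and 56.9% (57.7 ± 4.59%). KLRB1 was found in 15.6, 28.5, 54.5 and 48.4% (36.8 ± 17.9%) and KLRG1 in 30.8, 25.4, 39.5 and 41.2% (34.2 ± 7.44%). The share varied most between dogs for KLRB1 and least for KLRK1. With each cell thinned to 2000 UMIs the means were 52.6% for KLRD1, 42.8% for KLRK1, 30.9% for KLRB1 and 22.6% for KLRG1. Thinning left out 4749 shallower cells over all classes and kept 633, 1264, 2012 and 1803 CD8A+ sp cells in dogs 1 to 4. Positive CD8A+ sp cells held 3.67 ± 0.0843 UMIs of KLRD1, 2.77 ± 0.280 of KLRB1, 2.28 ± 0.162 of KLRK1 and 1.64 ± 0.128 of KLRG1. A single UMI made the call in 59.9% of KLRG1-positive but in 19.7% of KLRD1-positive cells.

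Among CD4+ sp cells KLRK1 was found in 0.711, 11, 14.4 and 10.7% (9.21 ± 5.90%) and KLRG1 in 3.23, 7.00, 9.39 and 16.9% (9.12 ± 5.75%). KLRD1 was found in 3.52 ± 2.55% and KLRB1 in 1.06 ± 0.927%. Dog 1 had the lowest share for each gene, with 0.273% for KLRD1 and 0.137% for KLRB1. Thinned to 2000 UMIs, the means were 5.55%, 4.96%, 1.85% and 0.703% in the same order. As a background, CD4+ sp cells with UMIs of CCR7 and LEF1, both genes of naive T cells, had a KLRK1 UMI in 3.99 ± 2.78%, a KLRG1 UMI in 3.39 ± 2.74%, a KLRD1 UMI in 1.42 ± 1.08% and a KLRB1 UMI in 0.908 ± 0.779%. Their median depths were 3874 to 4620 UMIs, against 3747 to 4091 for all CD4+ sp and 3586 to 3932 for CD8A+ sp cells. The KLRB1 share of CD4+ sp cells was thus near this background, with 0 of 1504 background cells in dog 1, which allows a share of up to 0.199%. Of KLRK1-positive CD4+ sp cells with a TRB chain 3.68% held more than 1, against 3.85% of KLRK1-negative ones, and for KLRG1 the shares were 6.77% and 3.55%.

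The T cell identity of the receptor-positive cells was checked against their antigen receptors. A productive TRA or TRB sequence was found in 89.2 ± 1.94% of KLRK1-positive, 89.9 ± 4.02% of KLRG1-positive, 89.1 ± 3.47% of KLRB1-positive and 88.0 ± 2.22% of KLRD1-positive CD8A+ sp cells. Cells without the respective UMI had such a sequence in 83.9 to 86.2%. Of 5 NK cell markers fixed for this check, 4 had a row and summed to 12.7 to 18.0 CPM in CD8A+ sp cells, most of it NCR1. That sum was 27.8 to 47.9 CPM in KLRB1-positive and 4.34 to 9.17 CPM in KLRB1-negative CD8A+ sp cells. Over all kept cells KLRF1, KIT and NCAM1 had 9, 25 and 43 UMIs, and the part of NK-like cells in the results was not tested.

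The partners and ligands of the receptors were read from fixed gene lists in the same test. HCST, the adaptor of NKG2D, was at 64.6 ± 8.16 CPM in CD8A+ sp and 38.3 ± 9.07 CPM in CD4+ sp cells (log2 0.76, SE 0.16, edgeR adjusted p = 0.0108). FCER1G, a signalling chain shared by Fc and NK receptors, was at 346 ± 109 against 1.08 ± 0.563 CPM (log2 8.28, SE 0.35, edgeR adjusted p = 1.61e-06). In all, 6 of 12 tested adaptors and kinases were higher and none was lower. All 9 tested NK receptors outside the members were higher in CD8A+ sp cells, with a median log2 fold change of 4.33 against 0 over all genes, among them NCR3 at 212 against 2.57 CPM and CD160 at 143 against 1.26 CPM. Of 4 tested genes on the list of ligands 1 was called higher in CD8A+ sp cells and 1 lower. The higher one was DLA-64, at 6021 ± 501 against 4836 ± 506 CPM (log2 0.31, SE 0.08, edgeR adjusted p = 0.0394). DLA-79 was not called (edgeR adjusted p = 0.953), and ULBP3, MICA, RAET1E, DLA-88 and DLA-12 had no row of that symbol. Whether DLA-64 and DLA-79 bind the canine receptors was not tested. CLEC2D, which binds KLRB1 in humans, was at 460 ± 43.6 and 546 ± 63.4 CPM (edgeR adjusted p = 0.139). CDH1, the E-cadherin bound by KLRG1, was lower in CD8A+ sp cells at 5.08 ± 2.36 against 31.4 ± 5.91 CPM (log2 -2.60, SE 0.29, edgeR adjusted p = 0.000414).

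Within CD8A+ sp cells the members were detected together more often than the product of their single shares gives. After thinning to 2000 UMIs, KLRB1 and KLRD1 shared 1671 cells where 1200 were expected, a mean ratio of 1.57 ± 0.292 over dogs (1.3 to 1.92). In the mean over dogs 80.2 ± 3.35% of KLRB1-positive cells also had a KLRD1 UMI, whereas 45.1 ± 17.2% of KLRD1-positive cells had a KLRB1 UMI. The ratio was also 1.57 ± 0.252 for KLRG1 and KLRB1 and was 1.42 ± 0.323 for KLRG1 and KLRD1. It was lower for the pairs with KLRK1, at 1.25 ± 0.200 with KLRG1, 1.25 ± 0.183 with KLRB1 and 1.24 ± 0.149 with KLRD1. Each of the 24 ratios lay above 1, the lowest being 1.02 for KLRK1 and KLRG1 in dog 4. These ratios describe cells of shared libraries and carry no test.

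**Figure D2:**
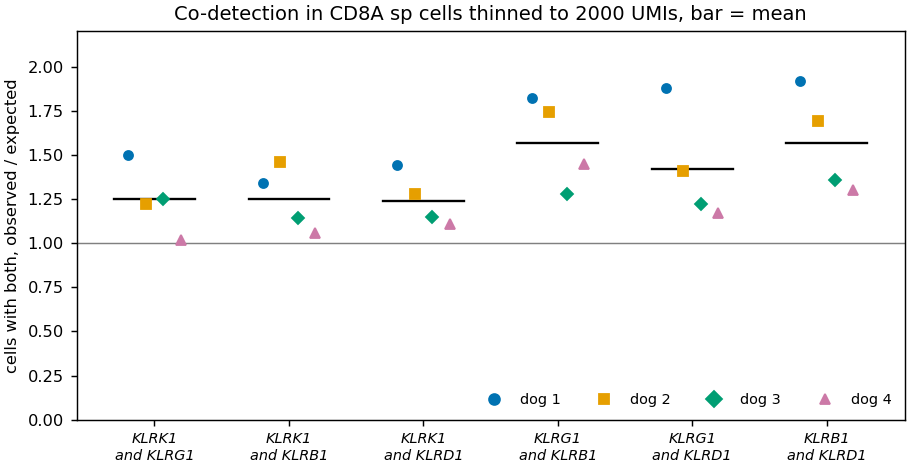
Cells with UMIs of both genes, observed over expected from the single shares, for 6 gene pairs in CD8A sp cells thinned to 2000 UMIs, with 1 point per dog and a bar for the mean. All points lie above the line at 1, and the pairs KLRG1 with KLRB1 and KLRB1 with KLRD1 have the highest means (1.57).

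Counted per cell at this depth, 27.3 ± 10.9% of CD8A+ sp cells had none of the 4 receptors, 23.8% had 1, 26.5% had 2, 17.6% had 3 and 4.84 ± 2.83% had all 4. The share with none ranged from 17.3% in dog 4 to 40.3% in dog 1. Unthinned, 20.4% had none and 12.2% had all 4. In CD4+ sp cells 88.9% had none and 9.31% had 1 at the thinned depth. Their most frequent pair was KLRK1 with KLRG1, in 93 cells where 36.4 were expected, and KLRB1 with KLRD1 was found in 13 cells where 2.03 were expected. In dog 1 the CD4+ sp counts rest on 0 to 2 cells per pair.

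The genes closest to each member over CD8A+ sp cells were ranked by the mean correlation over dogs, among 4243 genes in cells of 1 thinned depth. KLRB1 and KLRD1 both had GZMB, the gene of granzyme B, in first place (mean r = 0.37 and 0.369) and had each other among their nearest 5 (0.308). KLRG1 was also nearest to GZMB (0.244), followed by GZMK (0.216) and KLRD1 (0.191). KLRK1 had KLRD1 in first place (0.209), followed by IL2RB (0.166), GZMK (0.142), NCR3 (0.14) and SH2D1A (0.134). The lowest value of a dog was 0.123 for KLRD1, 0.0346 for IL2RB, 0.00997 for GZMK, 0.0413 for NCR3 and 0.0299 for SH2D1A. The order of the KLRK1 neighbours is thus not firm over dogs. The values are descriptions over 633 to 2012 cells per dog that share a library.

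The distribution of the members over FCER1G and GZMB gates differed by gene. KLRD1 averaged 969 ± 64.8 CPM in FCER1G+ GZMB+, 735 ± 51.7 in FCER1G+ GZMB-, 686 ± 139 in FCER1G- GZMB+ and 162 ± 107 CPM in FCER1G- GZMB- cells. It was high where either gene was present, and the first and last of these classes stood apart from their neighbours. KLRG1 followed GZMB, with 198 ± 49.1 and 196 ± 59.8 CPM in GZMB+ cells with and without FCER1G, against 89.8 ± 21.7 and 62.1 ± 36.7 CPM in GZMB- cells. KLRB1 was at 378 ± 205 and 395 ± 228 CPM in the GZMB+ classes, 215 ± 93.9 CPM in FCER1G+ GZMB- and 50.5 ± 34.5 CPM in FCER1G- GZMB- cells, with all neighbours overlapping. KLRK1 varied least, from 418 ± 99.9 CPM in FCER1G+ GZMB+ to 219 ± 58.7 CPM in FCER1G- GZMB- cells. CD8A+ sp cells with CCR7 and without GZMB, GZMK and FCER1G had 8.19 ± 3.92 CPM of KLRD1, 5.82 ± 4.54 of KLRG1 and 4.18 ± 3.08 of KLRB1, but 70.8 ± 48.3 CPM of KLRK1. In dog 4 this class had 46 cells with no KLRG1 UMI, which allows a share of up to 6.52%. TOX+ cells without FCER1G and GZMB had 254 ± 42.1 CPM of KLRK1, 119 ± 78.4 of KLRD1, 30.3 ± 13.9 of KLRG1 and 28.6 ± 17.7 of KLRB1.

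**Figure D3:**
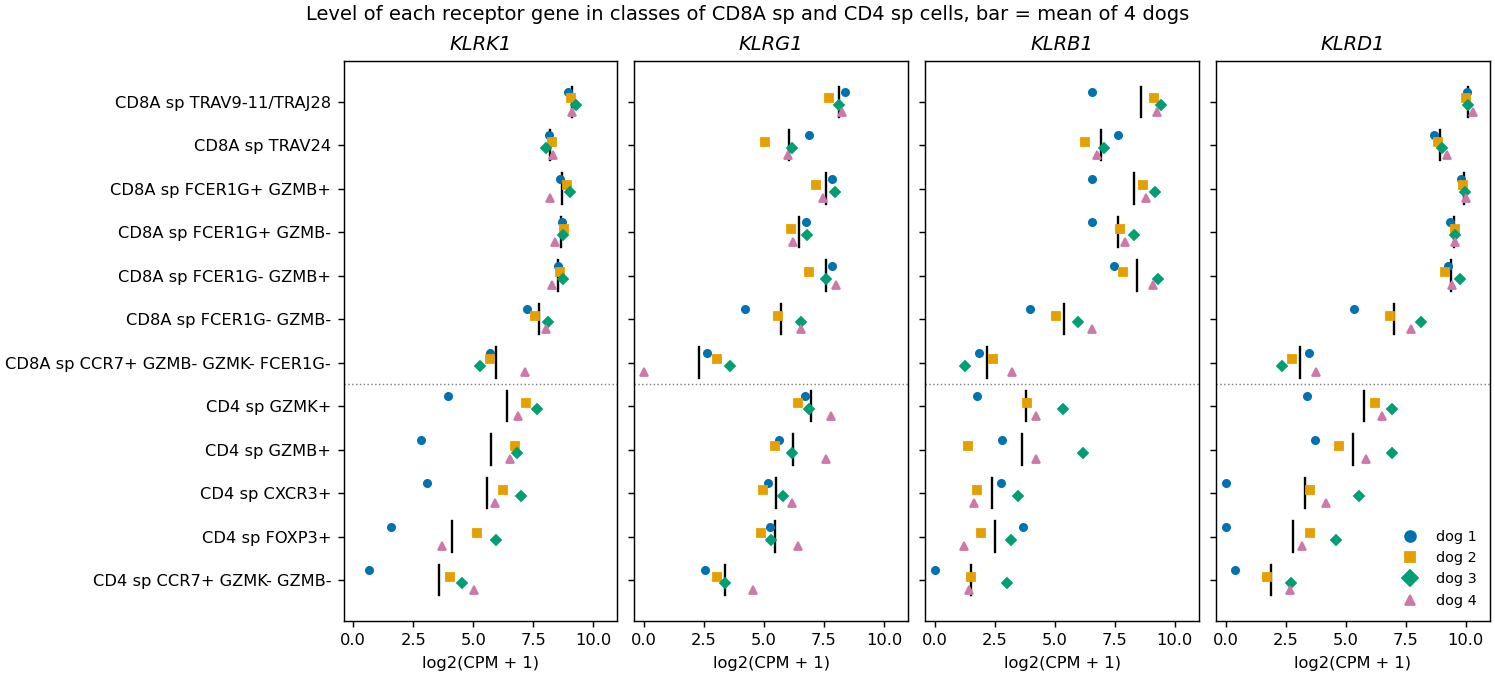
Level of the 4 receptor genes as log2(CPM + 1) in 7 classes of CD8A sp cells and, under the dotted line, 5 classes of CD4 sp cells, with 1 point per dog and a bar for the mean of the log values. In FCER1G- GZMB- cells KLRD1, KLRB1 and KLRG1 drop further than KLRK1 (219 ± 58.7 CPM), and dog 1 is the lowest point for KLRK1 in all 5 CD4 sp classes.

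CD8A+ sp cells with and without a UMI of FCER1G were compared next. KLRD1 was the only member called when the dog was not a replicate block. KLRD1 was at 840, 877, 953 and 908 CPM (895 ± 47.9) with FCER1G and at 313, 331, 623 and 523 CPM (447 ± 151) without it. FCER1G+ values were close together and above all FCER1G- values. The log2 fold change was 0.96 (SE 0.19, edgeR adjusted p = 0.0289), and 1.93% of 8506 genes were called, 1.05% as higher in FCER1G+ cells, against this 1 member of 4. KLRD1 was also called with the dog as a replicate block (1.01, edgeR adjusted p = 0.000588). In fits without the block, its change without cells with a TRAV9-11/TRAJ28 receptor was 0.91 and not called (adjusted p = 0.114). Nor was KLRD1 called there without dog 1 (0.103), dog 2 (0.174) or dog 4 (0.06). KLRK1 was at 417 ± 80.7 against 300 ± 46.7 CPM and higher in 4 of 4 dogs (log2 0.43, SE 0.15, edgeR adjusted p = 0.221), and it was called with the dog as a replicate block (0.42, adjusted p = 0.0192; 5.42% of genes called, 2.8% as higher). KLRG1 (log2 0.22, adjusted p = 0.852) and KLRB1 (0.36, 0.88) were not called. Of 9 other NK receptors tested 4 were higher in FCER1G+ cells, including TIGIT (20.4 against 2.45 CPM), CD96 (296 against 111 CPM) and CD160 (253 against 108 CPM).

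CCR7, a homing receptor of naive and central memory T cells, separated CD8A+ sp cells in the opposite direction. KLRD1 was at 149, 213, 349 and 202 CPM in CCR7+ and at 489, 536, 747 and 666 CPM in CCR7- cells. KLRG1 was at 24.8, 32.2, 77.2 and 75.8 CPM against 158, 103, 178 and 182 CPM. Both were lower in the CCR7+ cells of all dogs without overlap, by log2 -1.27 (SE 0.22, edgeR adjusted p = 0.0034) and -1.41 (SE 0.29, adjusted p = 0.00925). KLRK1 was at 89.0, 178, 248 and 150 CPM against 327, 368, 417 and 308 CPM, also without overlap (log2 -0.92, SE 0.21, edgeR adjusted p = 0.0179). KLRB1 was at 10.4, 42.4, 83.6 and 120 CPM against 108, 216, 483 and 387 CPM. It was lower in each dog, although CCR7+ cells of dog 4 exceeded CCR7- cells of dog 1 (log2 -2.11, SE 0.49, edgeR adjusted p = 0.0197). Of 8233 genes 9.32% were called and 4.7% were called lower, against 4 of 4 members. With the dog as a replicate block 1382 genes were called, again with 4 of 4 members. Their edgeR adjusted p was then 8.67e-07 for KLRK1, 1.2e-07 for KLRG1, 2.99e-11 for KLRB1 and 9.56e-10 for KLRD1. Without the block the KLRK1 call was lost without dog 2 (adjusted p = 0.109) or 4 (0.0528) and the KLRG1 call without dog 1 (0.0502). The KLRB1 call was lost without dog 2 (0.0945) or 3 (0.0752) and with DESeq2 (0.0521). HCST was lower too (log2 -0.73, edgeR adjusted p = 0.0455), and CLEC2D was higher (0.44, adjusted p = 0.0313).

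In CD4+ sp cells the members were compared between cells with and without GZMK, the gene of granzyme K, a protease of memory T cells. KLRD1 was at 9.53, 73.5, 121 and 91.8 CPM in GZMK+ and at 0.507, 4.85, 13.6 and 7.64 CPM in GZMK- cells. It was higher in each dog, while GZMK+ cells of dog 1 remained below GZMK- cells of dog 3 (log2 3.71, SE 0.64, edgeR adjusted p = 0.0476). KLRG1 was at 102, 83.6, 116 and 220 CPM against 10.7, 17.0, 21.7 and 50.3 CPM, with no overlap (log2 2.46, SE 0.44, edgeR adjusted p = 0.0554). KLRK1 was at 14.3, 147, 203 and 116 CPM against 2.53, 37.9, 49.5 and 39.1 CPM (log2 2.07, SE 0.67, adjusted p = 0.363). KLRB1 was at 2.38, 13.2, 39.2 and 17.7 CPM against 0.579, 1.97, 6.91 and 2.99 CPM (log2 2.79, SE 0.67, adjusted p = 0.173). All 4 genes were higher in GZMK+ cells of 4 of 4 dogs, and for KLRK1, KLRB1 and KLRD1 the GZMK+ value of dog 1 was the lowest of its class. In dog 1 these values rest on 6 UMIs of KLRK1, 1 of KLRB1 and 4 of KLRD1 in 93 GZMK+ cells. How many other genes were higher in each dog was not counted. Of 9513 genes 0.263% were called and 0.2% were called higher, against 1 member. With the dog as a replicate block 5.47% were called and 3.51% were called higher, against 4 of 4 members (adjusted p = 7.84e-15 for KLRD1, 7.79e-14 for KLRG1, 2.04e-13 for KLRK1 and 6.67e-08 for KLRB1). Without the block the KLRD1 call was lost without dog 2 (0.432), 3 (0.259) or 4 (0.122), KLRG1 was called without dog 4 (0.00312) and KLRK1 without dog 1 (0.00753).

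For KLRG1 and KLRK1 the other CD4+ sp classes had lower mean levels than GZMK+ cells. KLRG1 was at 87.9 ± 69.2 CPM in GZMB+, 60.1 ± 46.2 in PDCD1+, 47.3 ± 25.8 in FOXP3+, 46.9 ± 18.4 in CXCR3+ and 34.5 ± 23.3 in GATA3+ FOXP3- cells, against 10.8 ± 7.66 CPM in CCR7+ cells without granzymes. KLRK1 was at 78.5 ± 49.1 CPM in GZMB+, 66.9 ± 49.2 in CXCR3+ and 27.5 ± 26.3 in FOXP3+ cells. KLRB1 had its highest mean in GZMB+ cells (24 ± 31.9 CPM), above GZMK+ cells (18.1 ± 15.5 CPM). Neighbouring classes overlapped for each gene. Dog 4 had the highest KLRG1 level in all CD4+ sp classes, and dog 1 the lowest KLRK1 level.

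Clonal expansion was read from the TRB chains, a clone being cells of 1 dog with exactly 1 productive TRB and the same V gene, J gene and junction. In CD8A+ sp cells KLRD1 was at 613, 545, 828 and 690 CPM in expanded clones of at least 2 cells and at 287, 399, 394 and 458 CPM in singletons. Expanded cells were higher in each dog without overlap, by log2 0.75 (SE 0.15, edgeR adjusted p = 0.0314). KLRK1 was at 406, 427, 448 and 327 CPM against 174, 280, 288 and 249 CPM. These values did not overlap either (log2 0.63, SE 0.15, edgeR adjusted p = 0.067; 0.00136 with the replicate block). KLRG1 was at 195, 102, 196 and 187 CPM against 91.3, 82.3, 83.7 and 156 CPM (log2 0.68, SE 0.23, adjusted p = 0.216; 0.0112 with the block). KLRB1 was at 97.3, 212, 530 and 418 CPM against 108, 193, 164 and 275 CPM, and was higher in 3 of 4 dogs (log2 0.74, SE 0.41, adjusted p = 0.497). Of 8290 genes 1.07% were called and 0.302% were called higher, against 1 member. With the block 6.57% were called and 2.91% were called higher, against 3 members. For KLRD1 the edgeR adjusted p was 0.00046 with the block. The other alternatives were fitted only without the block. In these unblocked fits the KLRD1 call was lost when any 1 of the 4 dogs was left out (adjusted p = 0.0658 to 0.141). It was also lost with gates at 2 UMIs (0.0967), thinned (0.0864), with clones by paired TRA and TRB (0.0682), without the largest clones (0.087) and without TRAV9-11/TRAJ28 cells (0.0967). TRAV9-11/TRAJ28 cells made up 35.6, 11.6, 12.4 and 5.12% of expanded and 12.1, 19.5, 11.1 and 5.90% of singleton cells in dogs 1 to 4, and their part in the result was not tested beyond leaving them out.

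In CD4+ sp cells KLRK1 was called higher in expanded clones, and KLRD1 was higher in each dog and called with the replicate block but not without it. KLRK1 was at 3.65, 97.8, 208 and 84.1 CPM in expanded clones and at 2.97, 18.4, 26.7 and 13.6 CPM in singletons. The ratio was 5.31 to 7.80 in dogs 2 to 4 and 1.23 in dog 1, which had 132 expanded CD4+ sp cells. The log2 fold change was 2.83 (SE 0.63, edgeR adjusted p = 0.0308). KLRD1 was at 5.48, 16.8, 77.6 and 23.2 CPM against 0.495, 6.89, 10.9 and 6.69 CPM, higher in each dog (log2 2.46, SE 0.71, adjusted p = 0.0688; 9.12e-05 with the replicate block). Dog 1 had 11 KLRD1 and 41 KLRK1 UMIs in all its 3658 CD4+ sp cells, so its values in expanded cells rest on few UMIs. KLRG1 was at 54.8, 30.1, 61.4 and 64.8 CPM against 12.7, 17.1, 22.6 and 69.6 CPM (log2 0.81, SE 0.48, adjusted p = 0.349). KLRB1 was lower in expanded cells of 3 dogs, with 0 of 132 cells in dog 1, which allows a share of up to 2.27% (log2 -0.08, SE 0.85, adjusted p = 0.987). Of 9364 genes 5.34% were called and 2.98% were called higher, against 1 member. With the block these shares were 15.6% and 8.22%, against 2 members. For KLRK1 the edgeR adjusted p was 1.79e-07 with the block. In fits without the block the KLRK1 call was lost with DESeq2 (adjusted p = 0.104) and without dog 2 (0.228), 3 (0.119) or 4 (0.0696). KLRG1 was called there without dog 4 (1.40, 0.0378). HCST was higher in expanded CD4+ sp cells (49.9 against 33.5 CPM, log2 0.60, edgeR adjusted p = 0.0446) and CLEC2D lower (log2 -0.62, adjusted p = 0.0114).

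Whether the expansion effect differed between lineages was tested as an interaction. It was -2.20 (SE 0.68) on the log2 scale for KLRK1 and -1.72 (SE 0.70) for KLRD1, the sign meaning a smaller change in CD8A+ sp cells. Neither was called (edgeR adjusted p = 0.565 and 0.764), and 0.0107% of 9311 genes were. KLRK1 was called with the replicate block (adjusted p = 0.0444), as were 0.387% of genes, 0.258% with the same sign. For KLRG1 (-0.13) and KLRB1 (0.85) the difference was below its standard error.

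**Figure D4:**
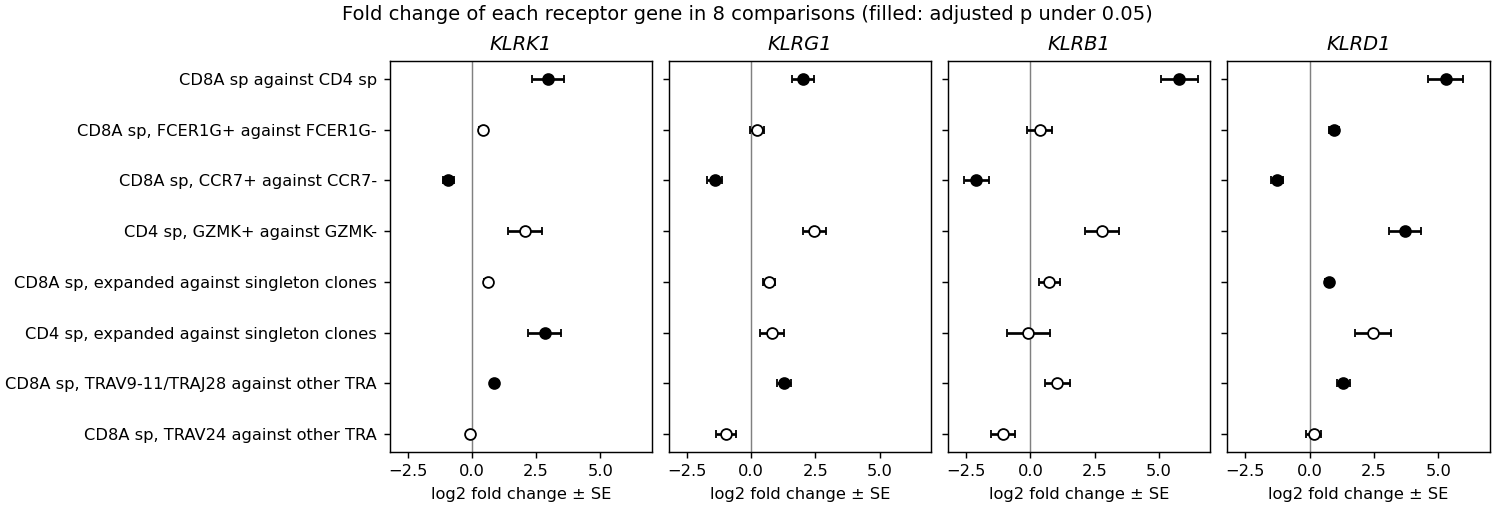
Log2 fold change (point) and SE (bar) of the 4 receptor genes in 8 comparisons of UMI sums over 4 dogs, filled where the adjusted p is under 0.05. KLRB1 and KLRD1 reach the highest values between lineages (5.80 and 5.29), all genes are lower in CCR7+ cells, and TRAV24 cells show no filled point.

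Cells can also be grouped by their TRA chain, independently of expression. In the paper most MAIT-like cells carry a TRA chain of TRAV9-11 joined to TRAJ28. Part of its effector memory and innate-like effector CD8A cells carry it too, so the chain does not delimit MAIT-like cells. This chain was found here in 153, 181, 244 and 97 CD8A+ sp cells of dogs 1 to 4. Its junction was nearly fixed in length, with 99.0% of 676 cell and junction pairs at 48 bases. The class compared was set by the V and J genes alone, not by the junction. The 4 most frequent of 239 distinct junctions are shown as examples. They were seen in 102, 38, 35 and 25 cells. They differ from each other only in the 7 positions in capitals, counted as 11 to 17 from the first base:
TRAV9-11/TRAJ28 junction of 102 cells: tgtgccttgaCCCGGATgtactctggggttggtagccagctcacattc
TRAV9-11/TRAJ28 junction of 38 cells: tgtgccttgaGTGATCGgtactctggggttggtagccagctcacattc
TRAV9-11/TRAJ28 junction of 35 cells: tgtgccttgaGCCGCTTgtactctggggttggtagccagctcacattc
TRAV9-11/TRAJ28 junction of 25 cells: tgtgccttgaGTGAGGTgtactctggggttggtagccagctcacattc
The first was found in dog 3 and the third in dog 1, whereas the second was found in dogs 2, 3 and 4 (8, 2 and 28 cells) and the last mainly in dog 4 (23 cells).

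CD8A+ sp cells with this receptor had higher levels of 3 of the 4 members than other CD8A+ sp cells with a TRA chain. KLRD1 was at 1058, 1041, 1108 and 1252 CPM against 217, 395, 644 and 561 CPM. All dogs were near the same level with the receptor, and no values overlapped (log2 1.3, SE 0.25, edgeR adjusted p = 0.00941). KLRK1 was at 490, 536, 627 and 548 CPM against 237, 315, 372 and 299 CPM (log2 0.86, SE 0.13, adjusted p = 0.0028). KLRG1 was at 330, 205, 281 and 299 CPM against 77.9, 69.8, 147 and 160 CPM (log2 1.28, SE 0.26, adjusted p = 0.0128). These also did not overlap. KLRB1, the MAIT cell marker of humans, was at 554, 683 and 607 CPM in dogs 2 to 4 against 136, 358 and 340 CPM, but at 92.0 against 96.1 CPM in dog 1 (log2 1.05, SE 0.49, adjusted p = 0.323; 0.000614 with the replicate block). The share of KLRB1-positive cells was 20.9% in dog 1 and 79.0 to 80.7% in the other dogs, while KLRD1 was found in 92.9% over dogs. Of 7463 genes 4.53% were called and 2.49% were called higher, against 3 members. With the block 8.31% were called and 4.53% were called higher, against 4 members. The edgeR adjusted p with the block was 1.91e-06 for KLRK1, 3.18e-06 for KLRG1 and 5.25e-06 for KLRD1. Without the block the KLRG1 call was lost without dog 1 (adjusted p = 0.0933) and the KLRD1 call without dog 2 (0.0765).

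In the same comparison ZBTB16, the gene of the innate-like transcription factor PLZF, was at 64.0 ± 11.8 against 14.6 ± 3.29 CPM (log2 2.07, edgeR adjusted p = 8.75e-05) and EOMES at 117 ± 20.2 against 40.8 ± 14.3 CPM (1.5, 0.00193). NCR3 was at 487 ± 143 against 162 ± 49.9 CPM (1.60, 0.00238), GZMB at 2323 ± 688 against 1133 ± 340 CPM (1.06, 0.0206) and PRF1 at 320 ± 73.7 against 118 ± 54.4 CPM (1.41, 0.0123). IL7R was lower (log2 -2.21, adjusted p = 0.00163). Of the fixed lists, 3 of 7 other NK receptors, 5 of 11 cytotoxic effectors and 4 of 9 transcription factors were higher. Called lower were 1 cytotoxic effector, IFNG at 1.18 ± 1.43 against 18.4 ± 11.2 CPM (log2 -3.70, edgeR adjusted p = 0.0359), and 2 transcription factors, TOX at 23.1 ± 2.72 against 119 ± 32.8 CPM (-2.32, 0.000202) and ZNF683 at 19.0 ± 13.6 against 80.5 ± 15.3 CPM (-1.86, 0.00676). At the thinned depth 2.55% of these cells had none of the 4 members and 10.6% had all 4.

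The paper names TRAV24 beside TRAV43-1 as a dominant V gene of its iNKT-like cluster, so TRAV24 alone does not delimit those cells. TRAV24 was found in 54, 154, 56 and 179 CD8A+ sp cells. These were compared with the 306, 717, 1339 and 1093 CD8A+ sp cells whose TRA chains were neither TRAV24 nor TRAV9-11/TRAJ28. None of the members was called (edgeR quasi-likelihood test). KLRK1 was at 280, 308, 257 and 317 CPM against 230, 316, 377 and 296 CPM (log2 -0.07, SE 0.14), and KLRD1 at 405, 457, 523 and 606 CPM against 184, 382, 650 and 553 CPM (0.16, SE 0.29). KLRG1 was at 117, 32.0, 71.3 and 63.6 CPM against 71.2, 78.1, 150 and 177 CPM (log2 -0.97, SE 0.38, adjusted p = 0.979). KLRB1 was at 200, 76.4, 131 and 107 CPM against 78.3, 149, 368 and 381 CPM (log2 -1.07, SE 0.47, adjusted p = 0.979). For both, dog 1 was higher with TRAV24 and dogs 2 to 4 were lower. In dog 1, a clone of 21 cells with TRAV24 in 90.5% had KLRG1 in 71.4% and KLRB1 in 76.2% of cells. In dog 4, a clone of 119 cells with TRAV24 in 92.4% had 3.36 and 0.84%. The part of single clones in these levels was not tested. Of 7259 genes 6, or 0.0827%, were called, 366 had an unadjusted p under 0.05 and DESeq2 called 10. KLRK1, KLRG1 and KLRD1 were each higher with TRAV9-11/TRAJ28 than with TRAV24 in all dogs, and KLRB1 was in 3 dogs. These differences were not tested, and how many other genes differ likewise was not counted.

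Among 73 CD8A+ sp clones with at least 10 cells (2121 cells, 7 to 32 clones per dog) the members differed from clone to clone. The share of cells with a UMI ranged from 25.0 to 100% for KLRK1 (median 70.0%), and no clone was without it. KLRD1 ranged from 0 to 100% (median 90.9%), with 52 clones over 80% and 8 under 10%. KLRB1 also ranged from 0 to 100% (median 68.2%), with 29 clones over 80%, 26 under 10% and 18 without a positive cell. KLRG1 ranged from 0 to 93.8% (median 46.5%), with 4 clones over 80% and 12 under 10%. A cell without a UMI can hold the transcript, and since KLRG1-positive cells had few UMIs each, its intermediate shares do not show that cells of a clone differed.

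The members were also compared within the same clones. Of 26 clones under 10% for KLRB1, 14 were over 50% for KLRD1 and 25 over 50% for KLRK1. All 8 clones under 10% for KLRD1 were also under 10% for KLRB1 and over 50% for KLRK1. All 12 clones under 10% for KLRG1 were under 10% for KLRB1, and 7 of them were over 50% for KLRD1. In 16 clones from 3 dogs all 4 genes were over 50%, and in 11 clones from 4 dogs KLRK1 alone was. In 12 clones all but KLRG1 were over 50%, and in 10 KLRK1 and KLRD1 were. In 6 clones from 2 dogs all but KLRB1 were over 50%, and in 1 KLRK1 and KLRG1 were. KLRK1 was at or under 50% in 8 clones with the other members over 50%, in 7 with KLRB1 and KLRD1 over 50%, in 1 with KLRD1 alone and in 1 with KLRB1 alone. In the largest clone of dog 3 (146 cells) the shares were 84.9% for KLRK1, 43.2% for KLRG1, 92.5% for KLRB1 and 91.8% for KLRD1. The largest clone of dog 4 (119 cells, TRAV24) had 81.5, 3.36, 0.84 and 91.6% in the same order. A clone of 22 cells in dog 2 had KLRK1 in 72.7% and no UMI of the other members.

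**Figure D5:**
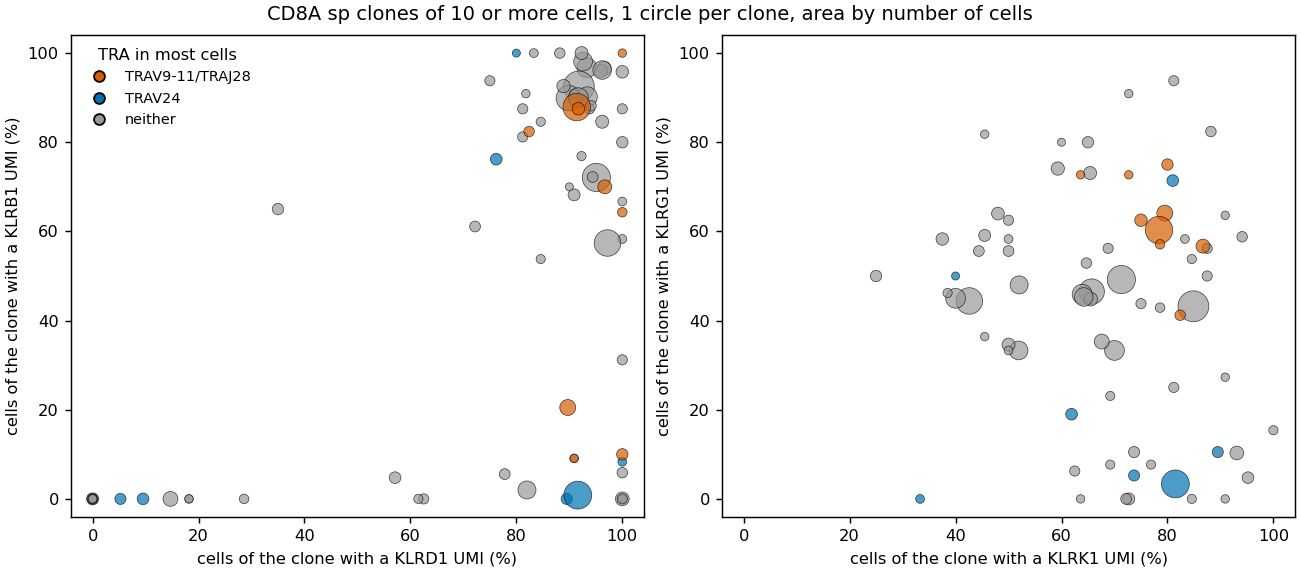
Share of cells with a UMI of KLRB1 against KLRD1 (left) and of KLRG1 against KLRK1 (right) in 73 CD8A sp clones of at least 10 cells, 1 circle per clone with its area set by the number of cells and its colour by the TRA chain of most cells. Clones low in KLRD1 lie at 0% KLRB1, clones high in KLRD1 spread from 0 to 100% KLRB1, and no clone lies under 25.0% KLRK1.

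Of these clones 9 carried TRAV9-11/TRAJ28 in most cells, with KLRD1 in 82.4 to 100% and KLRK1 in 63.6 to 86.7% of cells but KLRB1 in 9.09 to 100%. The largest clone of dog 1 (39 cells) was of this kind and had KLRB1 in 20.5%, KLRG1 in 64.1%, KLRK1 in 79.5% and KLRD1 in 89.7%. A further 7 clones carried TRAV24, with a median of 0.84% for KLRB1, 10.5% for KLRG1, 73.7% for KLRK1 and 80% for KLRD1. The 57 clones with neither chain in most cells had medians of 70.0% for KLRB1, 45.9% for KLRG1, 67.6% for KLRK1 and 90.9% for KLRD1. In the TRAV9-11/TRAJ28 clones these medians were 70.0, 62.5, 78.6 and 91.7%. The cells of a clone share their origin, so these shares are not independent measurements of a condition.

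CD4+ sp clones of at least 10 cells were examined after those of CD8A+ sp cells had been seen. There were 46 such clones with 879 cells, 11 in dog 2, 6 in dog 3 and 29 in dog 4, and none in dog 1. KLRK1 was found in 0 to 83.3% of their cells (median 31.6%), with 18 clones over 50% and 8 without a positive cell. KLRD1 ranged from 0 to 78.6% (median 4.29%) and KLRG1 from 0 to 96.4% (median 0%), while KLRB1 reached at most 8.33% and was without a positive cell in 41 clones. In the largest clone of dog 3 (56 cells) 60.7% of cells had KLRK1 and 1.79% had KLRG1 or KLRD1 each. A clone of 28 cells in dog 4 had KLRK1 in 67.9%, KLRG1 in 96.4%, KLRD1 in 78.6% and KLRB1 in 0% of cells.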

How the data were processed

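Counts were deposited by the authors as raw UMI counts per gene and barcode, made with Cell Ranger 5.0.1 on CanFam 3.1, with V(D)J contig tables. Rows were named by the gene list of dogs 2 to 4, since that of dog 1 has 27980 lines against 20257 rows. That the dog 1 matrix follows this list rests on its row totals. On a log scale these correlated with those of dog 2 at 0.991 (dogs 3 and 4: 0.993 and 0.992), so values of dog 1 carry this doubt. Cells with 500 to 20000 UMIs and at most 10% mitochondrial UMIs were kept. No doublet caller was run; cells with more than 1 TRB or more than 2 TRA were left out as an alternative. UMIs were summed per dog and class (at least 20 cells) and tested with the edgeR 4.0.16 quasi-likelihood test (R 4.3.3) over all genes passing the filter on low counts, with Benjamini-Hochberg adjustment and a threshold of 0.05, after tests on simulated data. SEs were derived from the F statistic.

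Classes of a dog come from the same animal, so the replicate numbers pair them. Deviations from class means correlated at 0.0971 to 0.545. The dog as a replicate block was the paired alternative, beside DESeq2 1.42.0, no filter, thinning, stricter gates and each dog left out. These other alternatives were all fitted without the block, so calls lost in them ignore the pairing. CPM are per 1000000 UMIs. Over all genes, it was not counted how many were higher in every dog or did not overlap between classes. The members in every comparison, counts over 6 gene lists, and the 5 nearest genes were named by rule. The members and lists were chosen with earlier results of these data known. Intervals and floors (3 counts) cover counting error only.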

Additional observations from a re-analysis of the deposited data

Results flagged for a closer look

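In 7 of 92 groups of 4 dogs, 1 dog stood apart from the others by Dixon's criterion at 95%, where chance gives about 1 in 20. KLRD1 in CD8A+ sp FCER1G+ GZMB- cells was at 657 CPM in dog 1, with the nearest dog at 759 CPM. KLRK1 in CD8A+ sp CCR7+ cells without GZMB, GZMK and FCER1G was at 143 CPM in dog 4, from 46 cells, with the nearest dog at 51.2 CPM. In CD4+ sp PDCD1+ cells KLRK1 was at 2.15 CPM in dog 1 (nearest 53.6 CPM), and KLRB1 was at 42.6 CPM in dog 3 (nearest 3.03 CPM). The other 3 were co-detection ratios in CD4+ sp cells of dog 1 that rest on 1 or 2 cells, at 15.4 for KLRG1 and KLRB1 (nearest 4.36), 30.9 for KLRG1 and KLRD1 (nearest 4.52) and 204 for KLRB1 and KLRD1 (nearest 6.5).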

How the results depend on the processing

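Of 267 values of the members under alternatives other than leaving out a dog, 233 kept their direction and their side of the threshold, 8 lost and 22 gained a call, and 4 reversed. With the replicate block, calls were gained for KLRK1 in FCER1G+ cells (0.42), for KLRK1 (1.91), KLRG1 (2.39) and KLRB1 (2.58) in CD4+ sp GZMK+ cells, for KLRK1 (0.63) and KLRG1 (0.66) in expanded CD8A+ sp clones, for KLRD1 in expanded CD4+ sp clones (2.11), for KLRB1 with TRAV9-11/TRAJ28 (1.06) and for the KLRK1 interaction (-2.15). The block changed no other call of the members. In GZMK+ cells KLRG1 was also called with no filter (2.43), DESeq2 (2.43), without cells of several chains (2.51), with gates at 2 UMIs (2.84) and thinned (2.83), and KLRB1 with DESeq2 (2.63) and gates at 2 UMIs (3.36). In expanded CD8A+ sp clones KLRK1 was called with no filter (0.65), DESeq2 (0.64), clones of 5 or more cells (0.68) and without TRAV9-11/TRAJ28 cells (0.78), while KLRD1 lost its call with gates at 2 UMIs (0.62), thinned (0.64), with paired TRA and TRB (0.70), without the largest clones (0.68) and without TRAV9-11/TRAJ28 cells (0.86). In expanded CD4+ sp clones KLRD1 was called with no filter (2.45) and gates at 2 UMIs (2.71), and KLRK1 was not with DESeq2 (2.67). Calls were also lost for KLRD1 in FCER1G+ cells without TRAV9-11/TRAJ28 cells (0.91) and for KLRB1 in CCR7+ cells with DESeq2 (-2.14). Uncalled values reversed for KLRG1 in FCER1G+ cells without TRAV9-11/TRAJ28 cells (-0.21), KLRB1 in expanded CD4+ sp clones without the largest clones (0.03), KLRK1 with TRAV24 when thinned (0.07) and the KLRG1 interaction with clones of 5 or more cells (0.31). The cause was not tested. Leaving out cells of several chains removed no cell from the expansion comparisons and so says nothing of their stability. Its values for these comparisons and the interaction could not change, yet are counted among the 233.

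The share of CD8A+ sp cells with a UMI moved to 42.8% (thinned) and 34.3% (at 2 UMIs) for KLRK1, to 22.6% and 14.1% for KLRG1 and to 49.0% (at 2 UMIs) for KLRD1. Co-detection of KLRG1 and KLRB1 in CD8A+ sp cells moved to 1.82 without TRAV9-11/TRAJ28 cells, and that of KLRK1 and KLRD1 in CD4+ sp cells to 7.18 without thinning.

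Leaving out each dog, without the block, gave 144 values, of which 112 were unchanged in call and direction, 24 lost and 3 gained a call and 5 reversed. For KLRK1, KLRG1, KLRB1 and KLRD1 in turn, the ranges were 2.61 to 3.23, 1.75 to 2.43, 5.59 to 6.30 and 4.98 to 5.76 between lineages, 0.37 to 0.54, 0.07 to 0.56, 0.14 to 0.59 and 0.85 to 1.14 for FCER1G, and -1.12 to -0.80, -1.72 to -1.26, -2.25 to -2.03 and -1.47 to -1.17 for CCR7. They were 1.92 to 2.24, 2.28 to 2.64, 2.66 to 2.88 and 3.54 to 3.97 for GZMK, 0.50 to 0.71, 0.50 to 0.88, 0.32 to 0.91 and 0.64 to 0.86 for CD8A+ sp expansion, and 2.66 to 2.99, 0.54 to 1.40, -1.02 to 0.42 and 1.97 to 2.81 for CD4+ sp expansion. They were 0.81 to 0.90, 1.05 to 1.43, 0.79 to 1.16 and 1.10 to 1.53 for TRAV9-11/TRAJ28, -0.19 to 0.09, -1.42 to -0.73, -1.62 to -0.71 and -0.04 to 0.38 for TRAV24, and -2.29 to -2.04, -0.50 to 0.06, 0.40 to 1.33 and -1.96 to -1.45 for the interaction. Reversals were KLRB1 in expanded CD4+ sp clones without dog 2 (0.28) or 4 (0.42), KLRK1 with TRAV24 without dog 3 (0.09), KLRD1 with TRAV24 without dog 1 (-0.04) and the KLRG1 interaction without dog 1 (0.06).

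Over all genes the replicate block gave 2744, 461, 1382, 520, 545, 1460, 620, 10 and 36 calls in the order of these comparisons, against 1429, 164, 767, 25, 89, 500, 338, 6 and 1 without it. DESeq2 called 100 genes for GZMK, 193 for CD8A+ sp expansion, 10 for TRAV24 and 14 for the interaction. With no filter there were 55, 177, 12 and 2 calls in these comparisons. Thinning gave 80 calls for FCER1G, 345 for CCR7, 27 for CD8A+ sp expansion, 150 for TRAV9-11/TRAJ28 and 5 for the interaction. Gates at 2 UMIs gave 39 for GZMK, 49 for CD8A+ sp expansion and 0 for the interaction, and paired chains 56 and 2 for the last pair. Of the calls for CD8A+ sp expansion, 25 of 89 were higher, against 44.2% with the block, 37.3% with no filter and 11.1% when thinned. KLRB1 had no value in thinned expanded CD4+ sp clones, where it did not pass the filter, and with clones of 5 or more cells the CD4+ sp and interaction fits had 3 dogs. A KLRG1-positive cell rested on 1 UMI in 59.9% of cases, so shares of positive cells depend on depth.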
